A study of Mus musculus with 13 samples.

Results

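The transcripts described here are those of 9 genes of the mouse piRNA pathway, Piwil1, Piwil2, Piwil4, Pld6, Asz1, Gpat2, Mov10l1, Ddx4 and Mael, chosen by name from the 54232 genes of a count table of oocyte RNA. All 9 were found in the table by symbol. RNA of 13 pools, each of 25 oocytes or eggs, was sequenced to ask what changes when Sirena1, an abundant oocyte long noncoding RNA, is missing. The pools form 4 groups: metaphase II (MII) eggs of Sirena1 Null females (n = 4), MII eggs of wild-type (WT) females (n = 3), germinal vesicle (GV) oocytes of Null females (n = 3) and GV oocytes of WT females (n = 3). Null females carry an inherited deletion of the Sirena1 promoter made with Cas9, not limited to a cell type, and they descend from heterozygotes bred with C57BL/6NCrl animals. Every sample carries the strain label C57BL6/J, while the growth notes allow C57Bl6/J or C57BL/6NCrl animals and give no age. All females were superovulated. GV oocytes were held in medium with 0.2 mM IBMX, which keeps meiosis arrested, and eggs were taken 12 to 14 h after hCG.

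PIWI-interacting RNAs (piRNAs) are small RNAs that guide PIWI proteins to transposon transcripts and other targets in animal germ cells. Long precursor RNAs are unwound by the helicase MOV10L1 and cut at the mitochondrial outer membrane, where PLD6, ASZ1 and GPAT2 reside. The resulting piRNAs are loaded onto PIWI proteins and used further in perinuclear granules, the nuage, which contain DDX4 and MAEL. In mice the loss of most of these genes blocks sperm formation while females stay fertile, and mouse oocytes also silence transposons through endogenous siRNAs.

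Library totals ran from 30867614 to 41285507 counts. Levels are counts scaled to a common library total (CPM) with TMM factors, which correct for differences in RNA composition, so they are relative to the rest of each library. Levels of different genes are not ranked, because counts also depend on transcript length. The genotype labels were checked on Sirena1 (C86187), at 41.3 ± 4.41 CPM in Null eggs against 4519 ± 221 CPM in WT eggs, and at 24.8 ± 1.58 CPM in Null GV oocytes against 3006 ± 90.2 CPM in WT GV oocytes (SD). All 12 oocyte markers had counts in every library. Of 20 cumulus and granulosa markers, 12 to 18 had a count in MII Null libraries, 11 to 13 in MII WT, 17 to 20 in GV Null and 18 to 19 in GV WT. Their summed level was 101 to 130 CPM in MII Null, 108 to 111 CPM in MII WT, 99.5 to 612 CPM in GV Null and 99.5 to 131 CPM in GV WT. Cyp19a1 and Nr5a2 made up most of that sum outside the highest libraries, at 30.8 and 72.5 CPM in MII Null, 36.5 and 60.5 CPM in MII WT, 26.2 and 65.0 CPM in GV Null and 27.7 and 54.8 CPM in GV WT. In MII WT libraries 7 of the 20 markers had 0 counts throughout (Foxl2, Amh, Amhr2, Inha, Inhbb, Tnfaip6 and Fst), while others such as Fshr at 1.49 CPM and Hsd3b1 at 1.46 CPM had counts. GV Null replicates 2 and 3 stood apart with 612 and 254 CPM, against 99.5 CPM in replicate 1. GV Null replicate 2 also had all 8 blood cell markers, summing to 13.2 CPM, against at most 1.27 CPM in any other library. On the leading principal component of all tested genes without the 9, which held 65.8% of the variance, MII Null replicate 4 lay at 25.7, the other MII libraries at 65.7 to 81.4, GV Null replicates 2 and 3 at -108 and -91.1, and the other GV libraries at -71.3 to -64.4. In pooled cells, fewer cells of a type and less RNA per cell cannot be told apart.

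The promoter windows of some of these genes hold an E-box, a sequence feature that the choice of genes did not use. RefSeq windows of GRCm38.p6, 250 bases before to 50 bases after a start site, were at hand for 8 of the 9 genes. The E-box hexamer CACGTG, a palindrome and so the same on both strands, occurred in a window of 5 of these 8 genes, against 2187 of 27025 genes with a window (8.09%), and was in no window of Piwil4, Asz1 or Gpat2. It was searched for after the windows had been read, so this is a description and not a test. The 10 windows of these 8 genes had 49.3% to 72.0% G and C, beside a median of 52.7% over all windows. The CCAAT box, CCAAT on either strand, was in windows of 6 of the 8 genes against 41.1% of all genes. The MYB element TAACNG, the kind of site that MYB family factors bind, was in windows of 3 of the 8 genes against 25.9% of all genes. No occurrence of these motifs overlapped another. The 5 windows with the hexamer are printed here because their genes include Ddx4 and Mov10l1. The changes of these 2 during WT maturation passed in every setting tried, in opposite directions. Piwil1, Pld6 and Mael, which also have the hexamer, did not pass in WT. A relation between the hexamer and these changes was not tested. The windows are given 5′ to 3′ on the strand of the gene, with the hexamer in capitals.
Piwil1 (chr5:128735996-128736295, plus strand): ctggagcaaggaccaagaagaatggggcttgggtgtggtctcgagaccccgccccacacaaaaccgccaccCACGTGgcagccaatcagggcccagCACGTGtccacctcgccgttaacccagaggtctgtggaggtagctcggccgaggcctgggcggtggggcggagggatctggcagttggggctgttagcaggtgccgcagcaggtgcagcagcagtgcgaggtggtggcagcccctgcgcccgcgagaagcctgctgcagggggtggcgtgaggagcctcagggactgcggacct
Pld6 (chr11:59787608-59787907, minus strand): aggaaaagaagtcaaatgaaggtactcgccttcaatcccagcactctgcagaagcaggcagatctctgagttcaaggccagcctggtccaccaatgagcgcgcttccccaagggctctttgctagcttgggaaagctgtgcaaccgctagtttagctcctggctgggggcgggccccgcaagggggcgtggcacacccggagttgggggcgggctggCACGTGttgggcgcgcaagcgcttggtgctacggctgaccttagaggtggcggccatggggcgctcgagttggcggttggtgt
Mov10l1 (chr15:88982744-88983043, plus strand): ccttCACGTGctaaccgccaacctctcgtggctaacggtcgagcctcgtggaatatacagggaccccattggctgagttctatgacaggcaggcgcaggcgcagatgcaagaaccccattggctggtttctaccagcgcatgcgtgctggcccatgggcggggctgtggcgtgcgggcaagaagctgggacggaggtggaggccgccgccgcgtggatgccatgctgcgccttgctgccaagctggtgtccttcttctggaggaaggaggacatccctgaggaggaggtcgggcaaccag
Ddx4 (chr13:112652261-112652560, minus strand): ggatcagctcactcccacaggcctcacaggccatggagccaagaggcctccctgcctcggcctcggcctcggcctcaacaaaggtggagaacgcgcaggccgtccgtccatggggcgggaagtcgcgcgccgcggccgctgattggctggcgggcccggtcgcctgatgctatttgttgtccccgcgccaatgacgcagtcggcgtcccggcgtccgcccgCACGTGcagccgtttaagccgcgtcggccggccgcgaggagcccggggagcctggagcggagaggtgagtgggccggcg
Mael (chr1:166238695-166238994, minus strand): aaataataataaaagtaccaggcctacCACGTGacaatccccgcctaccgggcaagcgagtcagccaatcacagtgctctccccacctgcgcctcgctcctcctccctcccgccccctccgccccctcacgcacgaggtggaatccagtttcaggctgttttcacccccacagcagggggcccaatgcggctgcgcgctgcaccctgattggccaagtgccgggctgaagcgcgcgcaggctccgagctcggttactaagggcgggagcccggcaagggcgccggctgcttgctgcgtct
The hexamer begins 29 bases before the start site in Ddx4 and 33 in Pld6. It begins 246 bases before it in Mov10l1, 223 in Mael, and 179 and 154 in Piwil1. The start site of a window can differ from the 5′ end of the annotated gene. It lies inside the gene by 323 bases in Ddx4, 175 in Piwil1 and 103 in Mov10l1, and at the 5′ end in Pld6 and Mael. A match of these letters does not show that a factor binds there.

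**Figure D1:**
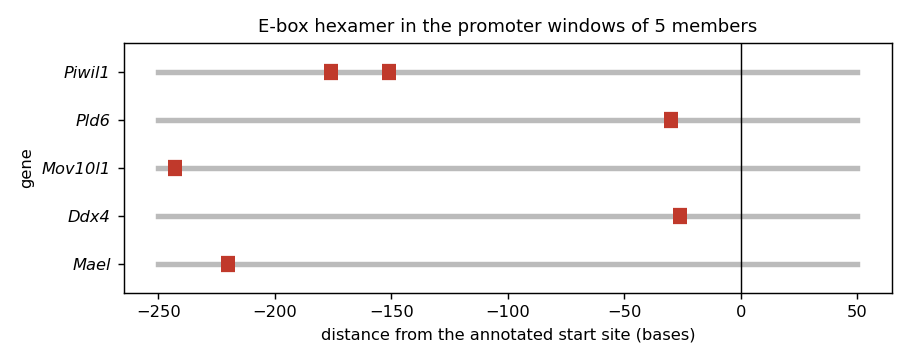
Position of the hexamer CACGTG (red) in the promoter windows of 5 genes (grey lines), as distance in bases from each window's start site (vertical line). It lies within 33 bases of that site in Pld6 and Ddx4 and farther upstream in Piwil1, Mov10l1 and Mael. The site itself lies inside the annotated gene by 323 bases in Ddx4, 175 in Piwil1 and 103 in Mov10l1, so distances from the gene's 5′ end differ.

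None of the piRNA pathway transcripts passed the test for a change with loss of Sirena1, in eggs or in GV oocytes. Of the 9 genes, 8 had enough counts to be tested, and Piwil4 did not. In MII eggs 0 of 8 passed an adjusted p of 0.05 (edgeR, Benjamini-Hochberg over all 20143 genes tested), where 0.0546% of all genes did. DESeq2 also called 0. An unadjusted edgeR p under 0.05 was found for 1 of the 8, Mov10l1, and for 1280 of all 20143 genes. In GV oocytes 0 of 8 passed, where again 0.0546% of all genes did. DESeq2 called 0, and 1 of the 8, Mael, had an unadjusted edgeR p under 0.05, where 1342 of all 20143 genes did. The members' median log2 fold change, Null over WT, was -0.03 in eggs and -0.12 in GV oocytes, beside 0.01 and 0.02 over all genes. In eggs 4 of 8 were above 0 and in GV oocytes 1 of 8, where 10712 and 10808 of all 20143 genes were. Without both GV Null libraries high in cumulus markers, Piwil1, Pld6, Asz1 and Mov10l1 lay above 0 in GV oocytes and Piwil2 below. That fit kept GV Null replicate 1 alone. The part of the libraries left out in the low GV values was not tested. Libraries of the genotypes did not overlap for Mov10l1 in eggs, 1 of 8 genes where 6.07% of all genes showed this, and for Ddx4 and Mael in GV oocytes, 2 of 8 where 12.8% of all genes did. The difference between the effect in eggs and the effect in GV oocytes passed for 0 of 8, where 0.00496% of all genes passed. DESeq2 called 0, and none of the 8 had an unadjusted edgeR p under 0.05, where 681 of all 20143 genes did. The smallest adjusted p was 0.999.

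**Figure D2:**
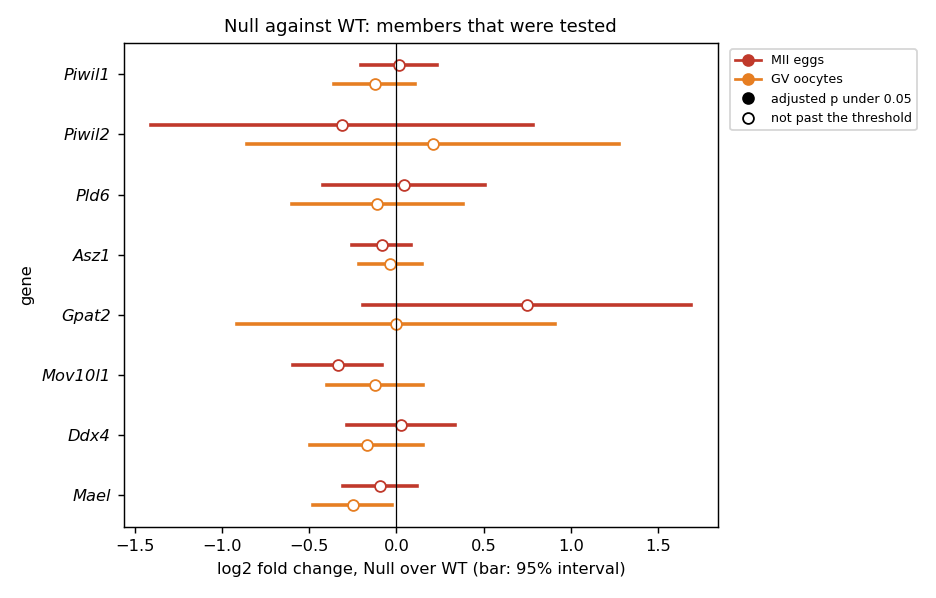
Log2 fold change of Null over WT for the 8 tested genes in MII eggs (red, upper) and GV oocytes (orange, lower), with 95% intervals of the edgeR fit. All points are open, since none passed; intervals are narrow for Asz1 (-0.25 to 0.09 in eggs) and wide for Piwil2 (-1.41 to 0.78 in eggs) and Gpat2 (-0.19 to 1.69 in eggs).

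Maturation from GV oocyte to MII egg moved the relative level of a few of them. A rise or fall here is relative to the rest of each library, and the amount per cell was not measured. In Null, 3 of 8 passed, Piwil1 higher and Piwil2 and Ddx4 lower in eggs, where 49.0% of all genes passed, 22.1% higher and 26.9% lower. In WT, 2 of 8 passed, Mov10l1 higher and Ddx4 lower in eggs, where 42.7% of all genes passed, 19.9% higher and 22.8% lower. The members' shares were 37.5% in Null and 25.0% in WT, over 8 genes only. Egg and GV libraries did not overlap for 0 of 8 genes in Null, where 46.4% of all genes showed this, and for 4 of 8 in WT, where 58.3% did. Ddx4 passed in both genotypes. The median log2 fold change, MII over GV, was 0.02 in Null and -0.04 in WT, beside -0.05 and 0.01 over all genes. The comparisons in Null and in WT share no library, but 1 fit gave both their spread.

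**Figure D3:**
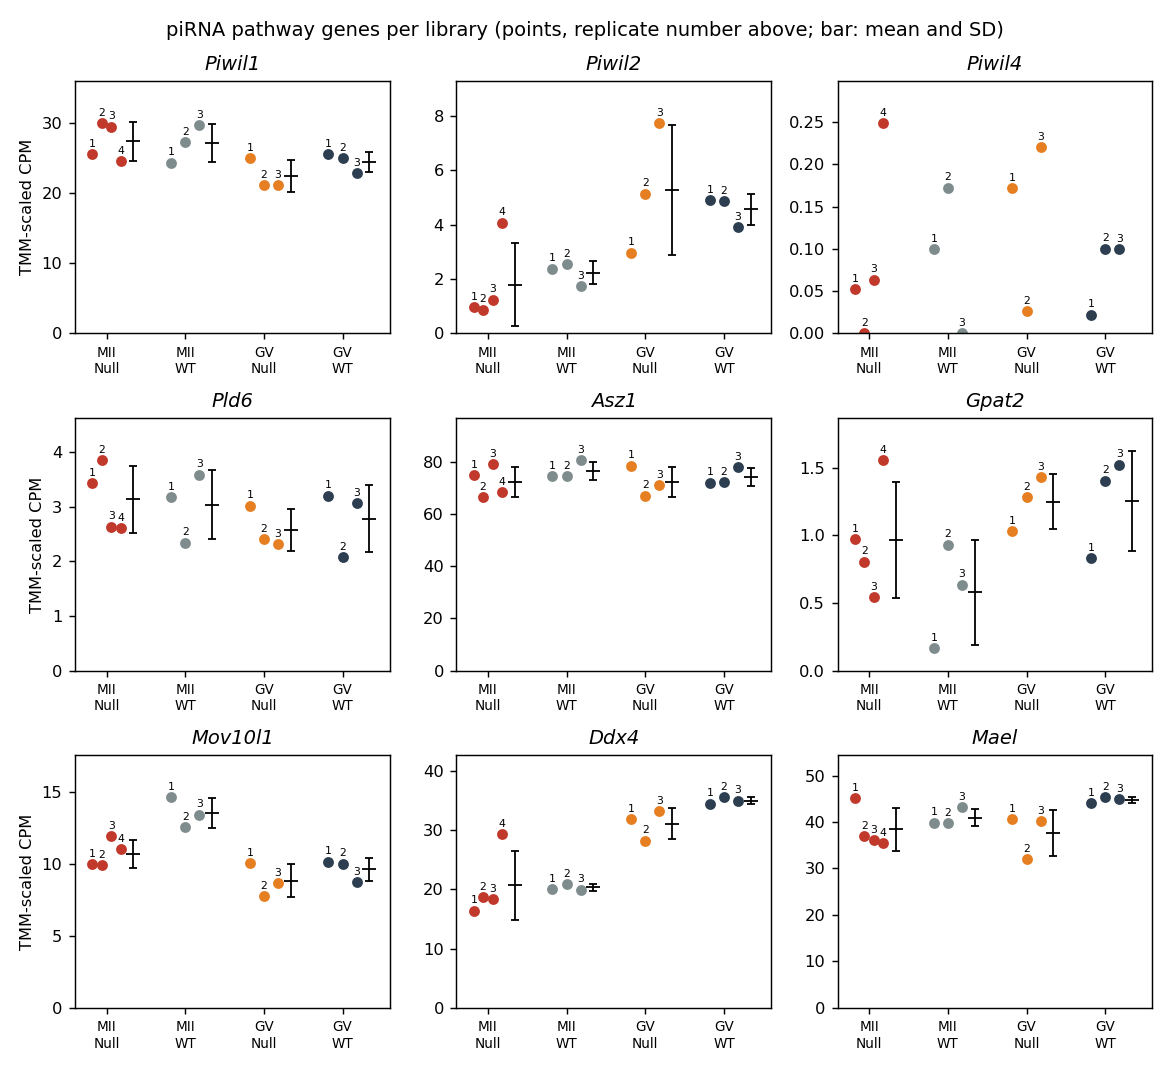
TMM-scaled CPM of each gene in every library (points, replicate number above), with mean and SD beside them except for Piwil4, which was not tested; each panel has its own axis from 0. Ddx4 and Piwil2 are lower in MII than in GV groups except in MII Null replicate 4, Mov10l1 is highest in MII WT, and Asz1 overlaps across all groups.

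Among the PIWI genes, Piwil1, or MIWI, encodes the PIWI protein of meiotic and postmeiotic male germ cells. Its gene (ENSMUSG00000029423) lies on chromosome 5 from 128736071 to 128755474. Piwil1 had 25.5, 29.9, 29.4 and 24.5 CPM in Null eggs against 24.3, 27.2 and 29.7 CPM in WT eggs. GV oocytes had 25.0, 21.1 and 21.1 CPM in Null and 25.6, 24.9 and 22.8 CPM in WT. The ranges of the groups overlapped within each stage and between the stages. Log2 fold changes for Null over WT were 0.01 in eggs (SE 0.10, 95% interval -0.21 to 0.23, adjusted p = 0.992) and -0.13 in GV oocytes (SE 0.11, interval -0.36 to 0.11, adjusted p = 0.888). For maturation, Piwil1 rose in Null, with a log2 fold change of 0.29 (SE 0.10, adjusted p = 0.0308), and had 0.15 in WT (SE 0.11, adjusted p = 0.309). The difference between these was 0.14 (SE 0.15, adjusted p = 0.999), so the genotypes were not shown to differ. The call in Null ended when any of 4 libraries was left out (adjusted p from 0.113 to 0.130). These were GV Null replicates 2 and 3 and MII Null replicates 2 and 3. It also ended with the compared groups alone, at 0.28 (adjusted p = 0.0687). With GV Null replicate 1 alone, without both libraries high in cumulus markers, the log2 fold change was 0.13.

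Piwil2, or MILI, encodes a cytoplasmic PIWI protein that binds piRNAs in growing mouse oocytes as well as in male germ cells. The gene (ENSMUSG00000033644) lies on chromosome 14 from 70372477 to 70436898, and the annotated small genes inside it, Gm22725 and Gm24890, had 0 counts. Piwil2 had 0.971, 0.875, 1.24 and 4.07 CPM in Null eggs (25 to 131 counts) against 2.38, 2.55 and 1.75 CPM in WT eggs (55 to 74 counts). Null GV oocytes had 2.97, 5.14 and 7.72 CPM, and WT GV oocytes 4.90, 4.86 and 3.89 CPM. Null libraries thus lay on both sides of the WT libraries at each stage, and MII Null replicate 4 stood above all other MII libraries. Null eggs averaged 1.79 ± 1.53 CPM and Null GV oocytes 5.28 ± 2.38 CPM, while WT eggs averaged 2.23 ± 0.42 CPM and WT GV oocytes 4.55 ± 0.57 CPM (SD). During maturation Piwil2 fell in Null by 1.56 on the log2 scale (SE 0.48, 95% interval -2.60 to -0.52, adjusted p = 0.0168). In WT the log2 fold change was -1.03 (SE 0.51, interval -2.15 to 0.09, adjusted p = 0.128), although no WT egg library reached the lowest WT GV library.

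Both results of Piwil2 turned on single libraries and on settings of the fit. The change in WT passed with no count filter (edgeR adjusted p = 0.00023) and with the replicate number as a block (0.00824). It also passed with the compared groups alone (0.000136), where the change in Null did not pass. Without MII Null replicate 4, which also lay toward GV libraries on the leading component, the change in WT was -1.08 and passed (adjusted p = 0.00451), since the fit shares a gene's spread among groups, and the change in Null was -2.37 (adjusted p = 4.67e-06). Without GV Null replicate 3 the change in Null was -1.18 and no longer passed (adjusted p = 0.0787). Without both GV Null libraries high in cumulus markers, which left GV Null replicate 1 alone, it was -0.73. Among the GV Null libraries, Piwil2 was lowest in replicate 1, which had the lowest cumulus marker sum, while replicate 3 had more Piwil2 and a smaller marker sum than replicate 2. The part of cumulus RNA in this result was not tested. For Null over WT, Piwil2 had log2 fold changes of -0.31 in eggs (SE 0.50, adjusted p = 0.963) and 0.21 in GV oocytes (SE 0.49, interval -0.86 to 1.28, adjusted p = 0.964). Without MII Null replicate 4 the value in eggs was -1.09 (adjusted p = 0.388), and the interval over all 4 Null libraries ran from -1.41 to 0.78.

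Piwil4, or MIWI2, encodes the nuclear PIWI protein that directs DNA methylation of transposons in fetal male germ cells. Its gene (ENSMUSG00000036912) spans chromosome 9 from 14701776 to 14740672. Piwil4 had 2, 0, 2 and 8 counts in Null eggs against 3, 5 and 0 counts in WT eggs. In GV oocytes it had 7, 1 and 8 counts in Null and 1, 4 and 4 counts in WT. These values lie around the floor of 3 counts, which equals 0.0672 to 0.105 CPM per library, and no fold change is given. The lncRNA Gm10706, annotated inside the gene, had 0 to 3 counts, and the pseudogene Gm15586 had 0. This floor is a fixed count and no error limit, and the reads carry no molecular identifiers.

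The mitochondrial and precursor-handling genes differed in how steady they were, but also in counts, and the part of counting noise was not tested. Pld6 encodes the outer-membrane endonuclease that cuts piRNA precursors, the mouse counterpart of fly Zucchini. The gene (ENSMUSG00000043648) lies on chromosome 11 from 59783893 to 59787657. Pld6 had 3.44, 3.85, 2.64 and 2.61 CPM in Null eggs against 3.18, 2.34 and 3.59 CPM in WT eggs, and 3.02, 2.41 and 2.31 CPM in Null GV oocytes against 3.20, 2.08 and 3.07 CPM in WT GV oocytes. All 4 groups overlapped. The log2 fold change for Null over WT was 0.04 in eggs (95% interval -0.42 to 0.51, adjusted p = 0.991) and -0.11 in GV oocytes (interval -0.60 to 0.38, adjusted p = 0.960). Pld6 had 68 to 143 counts per library. Differences inside these intervals are not excluded, and the intervals are not limits of detection.

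Asz1, or GASZ, encodes an ankyrin-repeat protein that anchors the processing complex to mitochondria. The gene (ENSMUSG00000010796) lies on chromosome 6 from 18050964 to 18109061. It had 66.6 to 79.2 CPM in Null eggs, 74.5 to 80.7 CPM in WT eggs, 67.1 to 78.6 CPM in Null GV oocytes and 72.1 to 78.0 CPM in WT GV oocytes, with overlap between all groups. Asz1 was the most precisely bounded of the 8, with 1903 to 3218 counts per library. Null over WT gave -0.08 in eggs (interval -0.25 to 0.09, adjusted p = 0.925) and -0.04 in GV oocytes (interval -0.22 to 0.14, adjusted p = 0.965). MII over GV gave a log2 fold change of 0.000233 in Null (interval -0.17 to 0.17, adjusted p = 0.999) and 0.05 in WT (interval -0.13 to 0.23, adjusted p = 0.685).

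Gpat2 encodes an outer-membrane protein of the glycerol-3-phosphate acyltransferase family that binds MILI. The gene (ENSMUSG00000046338) lies on chromosome 2 from 127425154 to 127436093. It had 37, 23, 17 and 50 counts in Null eggs against 5, 27 and 20 counts in WT eggs, and 42, 49 and 52 counts in Null GV oocytes against 37, 56 and 61 counts in WT GV oocytes. Gpat2 averaged 0.97 ± 0.43 CPM in Null eggs and 0.58 ± 0.39 CPM in WT eggs, and 1.25 ± 0.20 CPM in Null GV oocytes and 1.25 ± 0.37 CPM in WT GV oocytes. The groups overlapped in every comparison. MII over GV for Gpat2 was -0.36 on the log2 scale in Null (SE 0.41, adjusted p = 0.495) and -1.11 in WT (SE 0.46, adjusted p = 0.0620). The WT value passed without MII WT replicate 2 (-1.62, adjusted p = 0.0235), without GV WT replicate 1 (-1.34, adjusted p = 0.0452) and when MII Null replicate 3 (adjusted p = 0.0447) or 4 (adjusted p = 0.0405) was left out, and in 3 other settings of the fit. It was -0.67 without MII WT replicate 1, the library with 5 counts (adjusted p = 0.237). Null over WT in eggs was 0.75 (interval -0.19 to 1.69, adjusted p = 0.850), and 0.31 without MII WT replicate 1.

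Mov10l1 encodes the RNA helicase that binds piRNA precursors and is needed for their processing. The gene (ENSMUSG00000015365) lies on chromosome 15 from 88982891 to 89055152, and the small RNA gene Gm23737 inside it had 0 counts. Mov10l1 had 9.97, 9.91, 11.9 and 11.1 CPM in Null eggs against 14.6, 12.5 and 13.4 CPM in WT eggs. GV oocytes had 10.1, 7.78 and 8.69 CPM in Null and 10.2, 10.03 and 8.73 CPM in WT. Every WT egg library lay above every other library of the series. During maturation in WT, Mov10l1 rose 1.40-fold, a log2 fold change of 0.49 (SE 0.13, 95% interval 0.21 to 0.76, adjusted p = 0.00544). This call held in all 19 other settings tried (highest adjusted p 0.0337). In Null the log2 fold change was 0.28 (SE 0.12, interval 0.02 to 0.54, adjusted p = 0.0740), and it passed without GV Null replicate 1 (0.39, adjusted p = 0.0242). The Null and WT changes were not shown to differ (difference -0.21, SE 0.18, adjusted p = 0.999).

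The Null effect on Mov10l1 in eggs had the smallest unadjusted p of the 8 genes. Null eggs averaged 10.7 ± 0.96 CPM (n = 4) and WT eggs 13.5 ± 1.05 CPM (n = 3), with no overlap. The log2 fold change was -0.34 (SE 0.12, interval -0.59 to -0.08), with an unadjusted edgeR p of 0.0128 that became 0.692 after adjustment over all genes. Its value stayed between -0.39 and -0.28 over 19 other settings, and its adjusted p between 0.530 and 1. Mov10l1 in GV oocytes averaged 8.85 ± 1.15 CPM in Null, while WT had 9.64 ± 0.79 CPM (log2 -0.12, interval -0.40 to 0.15, adjusted p = 0.904).

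Of the nuage genes, Ddx4 changed with stage and Mael did not pass. Ddx4, the mouse Vasa gene, encodes a DEAD-box helicase of germ granules and marks germ cells of both sexes. The gene (ENSMUSG00000021758) lies on chromosome 13 from 112598333 to 112652633, and the hexamer in the window printed above lies inside this span. Ddx4 had 16.4, 18.7, 18.4 and 29.3 CPM in Null eggs against 20.1, 20.9 and 19.9 CPM in WT eggs. GV oocytes had 31.9, 28.2 and 33.2 CPM in Null and 34.5, 35.5 and 35.0 CPM in WT. WT egg and WT GV libraries did not overlap and were tight within each group, at 20.3 ± 0.53 and 35.0 ± 0.53 CPM (SD, n = 3 each). In Null, MII replicate 4 at 29.3 CPM lay above GV replicate 2 at 28.2 CPM.

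Ddx4 fell during maturation in Null (log2 -0.59, SE 0.14, 95% interval -0.89 to -0.28, adjusted p = 0.00267). In WT it was 1.72-fold lower in eggs than in GV oocytes (log2 -0.78, SE 0.16, interval -1.11 to -0.46, adjusted p = 0.000559). Both calls held in the 19 other settings tried, with log2 fold changes of -0.83 to -0.52 in Null and -0.84 to -0.77 in WT. Without MII Null replicate 4 the value in Null was -0.83 (adjusted p = 8.59e-07). It was -0.62 with GV Null replicate 1 alone, without both libraries high in cumulus markers. Null over WT was 0.03 in eggs (SE 0.15, interval -0.28 to 0.34, adjusted p = 0.991), and -0.17 without MII Null replicate 4 (adjusted p = 0.748). In GV oocytes it was -0.17 (SE 0.15, interval -0.49 to 0.15, adjusted p = 0.888), with every Null library below every WT library.

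Mael encodes a nuage protein with an HMG-like domain that acts in piRNA production and transposon silencing. The gene (ENSMUSG00000040629) lies on chromosome 1 from 166201385 to 166238744. Mael had 45.2, 36.9, 36.0 and 35.4 CPM in Null eggs against 39.9, 39.8 and 43.2 CPM in WT eggs. GV oocytes had 40.6, 31.9 and 40.3 CPM in Null and 44.0, 45.3 and 44.9 CPM in WT. Null GV libraries all lay below WT GV libraries, whereas in eggs MII Null replicate 1 lay above all WT libraries and the other 3 below. The log2 fold change for Null over WT was -0.25 in GV oocytes (SE 0.11, interval -0.48 to -0.03), with an unadjusted edgeR p of 0.0305 and an adjusted p of 0.722. Without both GV Null libraries high in cumulus markers, which left GV Null replicate 1 alone, it was -0.14. In eggs it was -0.09 (interval -0.30 to 0.12, adjusted p = 0.938). MII over GV was 0.03 in Null (adjusted p = 0.824) and -0.13 in WT (adjusted p = 0.360), where the WT egg and GV libraries did not overlap.

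**Figure D4:**
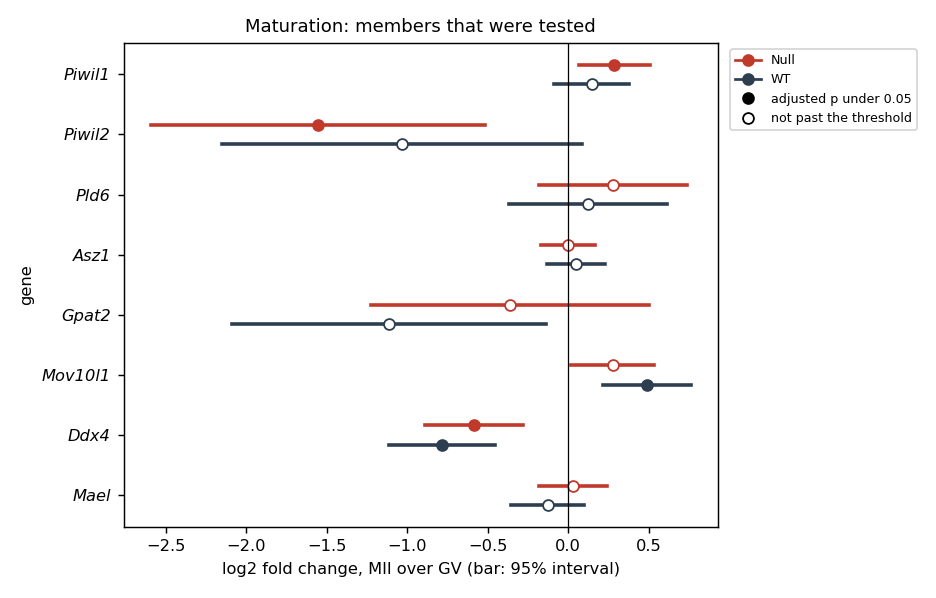
Log2 fold change of MII over GV for the 8 tested genes in Null (red, upper) and WT (dark, lower), with 95% intervals. Filled points passed an adjusted p of 0.05: Ddx4 lies below 0 in both genotypes, Mov10l1 is filled in WT, and Piwil1 and Piwil2 are filled in Null.

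The same comparisons were made for 24 other genes of the pathway, chosen by name. Of these, 23 were tested, and Wdr77, which encodes the partner of the arginine methyltransferase PRMT5, had too few counts. Wdr77 had 0, 0, 0 and 3 counts in Null eggs and 0 in each WT egg library. It had 7, 38 and 21 counts in Null GV oocytes against 11, 0 and 6 counts in WT GV oocytes, the 2 highest values being those of the libraries high in cumulus markers. For Null over WT, 0 of 23 passed in eggs and 0 of 23 in GV oocytes by edgeR, and DESeq2 also called 0 in each. An unadjusted edgeR p under 0.05, after which these genes are named, was found for 2 genes in eggs, Tex15 (log2 -0.31, adjusted p = 0.446) and Gtsf1 (log2 0.26, adjusted p = 0.727). In GV oocytes it was found for 1, Gtsf2 (log2 -0.72, adjusted p = 0.711). Of all 20143 genes tested, 1280 in eggs and 1342 in GV oocytes had such a p. The median log2 fold change was 0.02 in eggs and -0.11 in GV oocytes, beside 0.01 and 0.02 over all genes. Above 0 were 12 and 3 of the 23, where 10712 and 10808 of all 20143 genes were. The GV values include both Null libraries high in cumulus markers, whose part was not tested.

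During maturation, 13 of these 23 genes passed in Null, 5 higher and 8 lower in eggs, and 10 passed in WT, 2 higher and 8 lower. Shares were 56.5% in Null and 43.5% in WT, beside the 49.0% and 42.7% of all genes given above. Among those past the test in WT, the largest falls were in Dnmt3l, which encodes a cofactor of de novo DNA methylation, and in Gtsf1, which encodes a zinc-finger partner of PIWI proteins. Dnmt3l averaged 28.3 ± 3.58 CPM in WT eggs and 63.5 ± 0.64 CPM in WT GV oocytes (log2 -1.17, SE 0.11, adjusted p = 1.39e-07). Gtsf1 averaged 78.8 ± 2.68 CPM in WT eggs and 173 ± 12.9 CPM in WT GV oocytes (log2 -1.14, SE 0.11, adjusted p = 1.41e-07). Null showed falls of like size, with log2 fold changes of -0.93 for Dnmt3l (adjusted p = 6.66e-07) and -0.95 for Gtsf1 (adjusted p = 4.16e-07).

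Tdrkh, whose Tudor-domain product sits on mitochondria and binds PIWI proteins, averaged 47.0 ± 3.49 CPM in WT eggs and 98.8 ± 3.19 CPM in WT GV oocytes (log2 -1.07, adjusted p = 3.45e-07). Fkbp6, an immunophilin gene needed for piRNA production in the testis, averaged 2.63 ± 0.76 CPM in WT eggs and 4.71 ± 0.56 CPM in WT GV oocytes (log2 -0.84, adjusted p = 0.0159). The 2 genes that rose in WT were Gtsf2, a relative of Gtsf1, and Mybl1, which encodes A-MYB, the factor that drives pachytene piRNA genes in the mouse testis. Gtsf2 averaged 2.23 ± 0.39 CPM in WT eggs and 1.26 ± 0.16 CPM in WT GV oocytes (log2 0.82, SE 0.28, adjusted p = 0.0229). Mybl1 averaged 98.8 ± 4.39 CPM in WT eggs and 74.9 ± 1.09 CPM in WT GV oocytes (log2 0.40, SE 0.08, adjusted p = 0.000307). All 6 of these genes passed in the same direction in Null, with log2 fold changes of 1.67 for Gtsf2 and 0.37 for Mybl1. The count in WT was 6 without GV WT replicate 3 or MII WT replicate 1. In Null it was 10 to 14 when 1 library was left out.

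**Figure D5:**
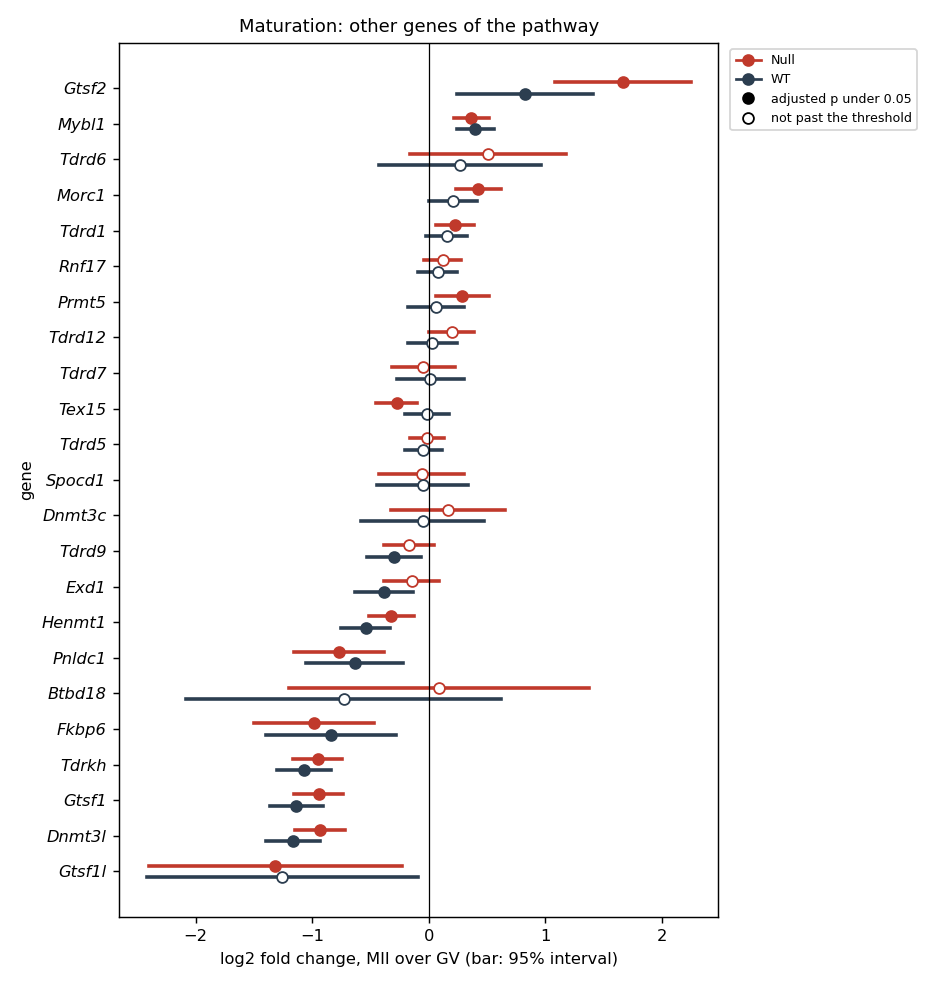
Log2 fold change of MII over GV for 23 other pathway genes in Null (red, upper) and WT (dark, lower), ordered by the WT value, with 95% intervals; filled points passed an adjusted p of 0.05. Gtsf2 and Mybl1 are filled above 0 in both genotypes, and Dnmt3l, Gtsf1, Tdrkh and Fkbp6 are filled below 0 in both.

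Genes with the most similar profile were sought for the 5 members that averaged at least 5 CPM, by Pearson r of log2 CPM across the 13 libraries among 8685 named genes of at least that level. All libraries of a stage share that stage, and the highest of many correlations are shown, so these values describe likeness only. Ddx4 was most like Hnrnpa3, an RNA-binding protein gene, and Armc1 (r = 0.97 and 0.96). Piwil1 was most like Siah1b and Camsap1, which encodes a protein of microtubule minus ends (r = 0.94 each). Mov10l1 was most like Cdkn2aip and Arhgap20 (r = 0.94 and 0.92), and Mael like Sub1 and the F-box gene Btrc (r = 0.91 and 0.87). Asz1, which varied least with stage, had the weakest matches, Xlr3d-ps and Ifit1bl1 (r = 0.82 and 0.79). After removing the group means, r was 0.66 to 0.91 for these 10 pairs.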

How the data were processed

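RNA of 13 pools of oocytes or eggs was made into libraries with a kit that does not mark strand and read as 65 bp single ends, per the labels' protocols. The deposited values are raw counts, 1 row for each Ensembl release 93 gene, per the file headers, and were not scaled by the authors. The submitters' processing notes name STAR 2.5.3a, bedtools 2.26.0 and the builds mm10 and GRCm38.p6, and the sources used here do not give the counting tool, its strand setting or its treatment of multiply mapped reads. Without strand, reads from overlapping genes cannot be told apart. A Renilla luciferase spike of 0.2 pg per sample is described, and no spike count was used here, so levels are relative. Of 54232 gene IDs, 54079 were paired with a symbol, and locations and promoters come from RefSeq tables of GRCm38.p6.

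The model was an edgeR 4.0.16 fit of the counts, run in R 4.3.3 (TMM, filterByExpr by group, glmQLFit robust, glmQLFTest, two-sided), with all 13 libraries in 1 model of 4 groups and 20143 genes kept. P-values were adjusted by Benjamini-Hochberg over these genes with a threshold of 0.05, and SE is the absolute log2 fold change divided by the root of F. The method was checked on simulated counts drawn with the fitted spread, which does not show that small changes would be found. Alternatives were RLE scaling, no count filter, DESeq2 1.42.0, the replicate number as a block, the compared groups alone, and leaving out libraries. Text names all 9 members, other pathway genes by the size of their change in WT maturation, and the most similar profiles of members averaging at least 5 CPM (prior count 2). Members, lists and the libraries left out as high in cumulus markers were chosen with earlier results of these data known. The labels do not say whether pools came from separate animals, so p-values measure the spread between these pools. No column pair was identical, and no replicates agreed within sampling noise (chi-square per degree of freedom 5.03 to 34.3).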

Additional observations from a re-analysis of the deposited data

Results flagged for a closer look

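In the group of 4 MII Null libraries, Piwil2 stood at 4.07 CPM in replicate 4, far above the 0.875 to 1.24 CPM of the other 3. Mael stood at 45.2 CPM in replicate 1 of the same group, above the 35.4 to 36.9 CPM of the other 3. Each gap to the nearest library exceeded Dixon's 95% limit for 4 values. The 8 tested genes were examined in this group, and chance flags about 1 in 20 such groups. Replicate 4 is the library that lay toward the GV libraries on the leading component, and 18 of 20 cumulus markers had a count in it against 12 to 13 in the other MII Null libraries. Their part in the Piwil2 value was not tested.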

How the results depend on the processing

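No member passed for Null against WT, or for the difference between stages, in any of the 19 other settings (18 for the difference), and Ddx4 in both genotypes and Mov10l1 in WT passed for maturation in all 19. For maturation in Null, the count of members was 1 in place of 3 with the compared groups alone. It ranged from 1 to 4 when 1 library was left out. In WT it was 4 in place of 2 with no count filter, with the replicate block and with the compared groups alone, which added Piwil2 and Gpat2, and ranged from 2 to 4 when 1 library was left out. For the 24 other genes it ranged from 10 to 14 in Null and from 6 to 12 in WT when 1 library was left out. Over all genes, the Null against WT count in eggs, 11, was 290 with no filter and 42 with DESeq2, and 4 to 12 when 1 library was left out. In GV oocytes, also 11, it was 644 with no filter and 24 with DESeq2, and 6 to 139 when 1 library was left out. The difference between stages, 1 gene, gave 157 with no filter, 3 with DESeq2, 0 with RLE scaling and 0 with the replicate block. It gave 0 to 1 when 1 library was left out. Maturation in Null gave 5672 genes without both GV Null libraries in place of 9867. The cause of these shifts was not tested.

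Small fold changes that did not pass changed sign. The fit without both GV Null libraries high in cumulus markers kept GV Null replicate 1 alone, so its GV Null values rest on that library. Without both GV Null libraries high in cumulus markers, Null over WT in GV oocytes was 0.029 for Piwil1, -0.62 for Piwil2, 0.11 for Pld6, 0.084 for Asz1 and 0.061 for Mov10l1, the difference between stages was -0.013 for Piwil1, 0.30 for Piwil2 and -0.071 for Pld6, and maturation in Null was -0.12 for Asz1 and -0.077 for Mael. With the compared groups alone, maturation in Null was -0.00647 for Asz1. When 1 library was left out, Null over WT in eggs ranged from -0.056 to 0.087 for Piwil1, -0.11 to 0.18 for Pld6 and -0.17 to 0.13 for Ddx4. In GV oocytes it ranged from -0.17 to 0.49 for Piwil2, -0.28 to 0.000845 for Pld6, -0.11 to 0.015 for Asz1 and -0.23 to 0.16 for Gpat2. The difference between stages ranged from -0.097 to 0.023 for Asz1. Maturation in Null ranged from -0.068 to 0.072 for Asz1 and -0.091 to 0.096 for Mael, and in WT from -0.044 to 0.28 for Pld6 and -0.0018 to 0.088 for Asz1. Scaling by RLE or DESeq2 moved the median of all genes by at most 0.04 on the log2 scale.

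The replicate numbers did not pair the samples: same-numbered libraries of different groups had correlations of -0.22 to 0.14 in their deviations from group means, 1 of 12 was over 0.1, and 11 of 24 matched their own number best. The replicate block gave 0.023 for Gpat2 in GV oocytes, -0.19 for Ddx4 in eggs and -0.019 for Ddx4 in the difference between stages, all opposite in sign to the fit without it. Low counts limit Piwil4, Gpat2 and, in eggs, Piwil2.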
